A study of Mus musculus with 6 samples.

Results

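Nonclassical MHC class I genes of the mouse H2 complex were followed in RNA of bone marrow B220+ cells, the fraction that carries the B220 form of CD45. The 8 genes H2-Q4, H2-Q6, H2-Q7, H2-T10, H2-T22, H2-T23, H2-T24 and H2-M3 were taken by symbol from a table of FPKM (reads scaled to transcript length and to library depth) with 27761 rows, and each symbol matched 1 row. The series holds 3 libraries of genotype PELI2 knockout, titled CKO, and 3 libraries of genotype WT, all from the same kind of B220+ marrow fraction. The labels used here give no strain, age, sex or Cre driver, and do not say whether replicates are separate animals, so p-values measure only the spread between these libraries. The question put to the 8 genes was whether any of them was on in some libraries and off in others, the pattern that a difference in H2 haplotype between the groups would give.

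In GRCm38 all 8 lie on chromosome 17. H2-Q4 (ENSMUSG00000035929) spans 35379617 to 35385290, H2-Q6 (ENSMUSG00000073409) 35424850 to 35430055, H2-Q7 (ENSMUSG00000060550) 35439155 to 35443773 and H2-M3 (ENSMUSG00000016206) 37270220 to 37274484, all on the plus strand. On the minus strand, H2-T24 (ENSMUSG00000053835) spans 36005695 to 36020560, H2-T23 (ENSMUSG00000067212) 36029773 to 36032855, H2-T22 (ENSMUSG00000056116) 36037128 to 36042747 and H2-T10 (ENSMUSG00000079491) 36115876 to 36121465.

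Class I heavy chains pair with the light chain beta-2 microglobulin at the cell surface. The classical chains H2-K and H2-D vary widely between strains and show peptides to CD8 T cells, while the nonclassical chains vary less and mostly serve narrower ligands or receptors. The genes lie in the Q, T and M regions of the H2 complex, and the number of Q and T genes differs between inbred strains. H2-Q6 and H2-Q7 belong to the genes of Qa-2, a molecule tethered to the membrane by a lipid anchor and known to differ in level between strains. H2-T23 encodes Qa-1, which shows a leader peptide of classical class I chains to a receptor of NK cells. H2-T10 and H2-T22 encode heavy chains that are recognised by some gamma delta T cell receptors without a bound peptide. H2-M3 shows formylated peptides of bacteria and mitochondria.

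The targeted gene did not separate the groups. Peli2, an E3 ubiquitin ligase gene, stood at 3.07, 2.70 and 2.47 FPKM in libraries labelled PELI2 knockout, against 2.03, 2.54 and 1.99 FPKM in WT (two-sided exact permutation test, p = 0.2, where 3 against 3 libraries cannot go below 0.1). A value over the whole gene does not separate exons, and each direction below is that of the label. Depth, recovered from the steps between low FPKM values, was 16600000 to 18100000 reads, so that 1 FPKM is worth at least 16.6 reads per kilobase of transcript. Summed levels of the B cell, granulocyte and monocyte lists did not overlap between the labels, those of the erythroid list did, and 0 of the genes in these lists passed the limma test over all genes. Of 15 granulocyte genes 15 had a higher mean in libraries labelled PELI2 knockout, with a summed level of 11907 to 13926 FPKM there and 7477 to 10387 FPKM in WT. Of 12 B cell genes 11 had a lower mean, with a summed level of 1782 to 1885 FPKM in libraries labelled PELI2 knockout, against 2176 to 2591 FPKM in WT. Of 11 monocyte and macrophage genes 11 had a higher mean (summed 951 to 1214 FPKM in libraries labelled PELI2 knockout, against 650 to 920 FPKM in WT), as had 9 of 9 erythroid genes (11735 to 14722, against 7988 to 11967 FPKM) and 8 of 9 plasmacytoid dendritic cell genes (1079 to 1254, against 1033 to 1079 FPKM, nearly touching). Beside these counts, 53.6% of all tested genes had a log2 fold change below 0. No gene of these lists was at 0 in all libraries, and the part of this shift in the values below was not tested. In such bulk samples fewer cells of a type and less RNA per cell cannot be told apart.

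How far reads of 50 bases can tell the 8 genes apart was read from their sequences, because several are near copies. Over the coding sequences of GENCODE M21 (GRCm38), H2-Q6 and H2-Q7 were identical at 95.4% of 978 aligned bases, with a longest identical run of 265 bases. H2-T10 and H2-T22 were identical at 96.9% of 1134 aligned bases, with a longest identical run of 134 bases. Among the other pairs, identity ran from 65.3% between H2-T10 and H2-T24 to 90.8% between H2-Q4 and H2-Q7. Even these near copies hold stretches that separate them, and the 50 coding bases with the most differences within an exon are shown for each pair, 5′ to 3′ on the coding strand, with the bases that differ in capitals. They lie at chr17:35425129-35425178 (plus strand) for H2-Q6, at chr17:35439473-35439522 (plus strand) for H2-Q7, at chr17:36119324-36119373 (minus strand) for H2-T10 and at chr17:36040613-36040662 (minus strand) for H2-T22, all in GRCm38.
H2-Q6: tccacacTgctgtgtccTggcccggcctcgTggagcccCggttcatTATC
H2-Q7: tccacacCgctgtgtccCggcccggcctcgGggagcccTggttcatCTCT
H2-T10: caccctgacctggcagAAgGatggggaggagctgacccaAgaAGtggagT
H2-T22: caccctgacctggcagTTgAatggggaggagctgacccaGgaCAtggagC
The first pair differs at 8 of 50 bases and the second at 7 of 50.

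The share of 50-base windows found in no transcript of another gene shows how much of each gene a read can assign to it alone. Over all annotated transcripts, untranslated ends included, it was 99.4% for H2-M3 and 96.8% for H2-T24, the members most distant from the rest. It was 85.5% for H2-T23, 73.5% for H2-Q7, 65.0% for H2-Q6 and 63.6% for H2-Q4. H2-T10 at 49.6% and H2-T22 at 46.5% had the lowest shares. Over the coding sequence alone the order differed: it was 99.2% for H2-M3, 97.4% for H2-T24, 70.4% for H2-T23, 63.5% for H2-T10, 63.1% for H2-Q6, 57.5% for H2-Q4, 56.4% for H2-T22 and 43.7% for H2-Q7. H2-M3 and H2-T24 led on both counts, while levels of the Q genes and of H2-T10 and H2-T22 depend on how the authors' software divided shared reads. The Qa-2 genes H2-Q8 and H2-Q9 had no row under those symbols, so no level of their own is listed. Whether reads from them enter the values of H2-Q6, H2-Q7 or other rows was not tested.

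**Figure D1:**
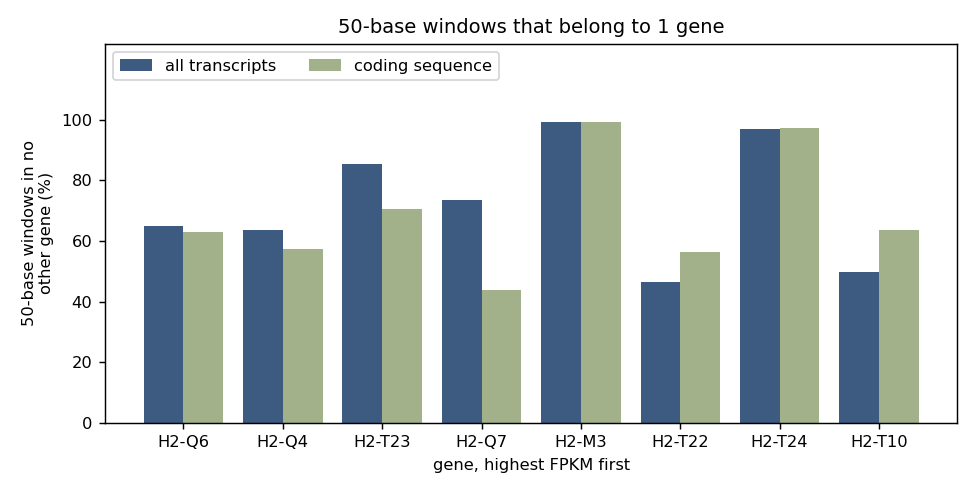
Percent of 50-base windows (y axis) that occur in no GENCODE M21 transcript of another gene, over all transcripts (dark bars) and over the coding sequence (light bars), for the 8 genes ordered by mean FPKM (x axis). H2-M3 and H2-T24 stand highest in both, and the lowest is H2-T22 at 46.5% over all transcripts and H2-Q7 at 43.7% over coding sequence.

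All 8 genes were expressed in all 6 libraries, and no on or off pattern was seen. A gene counted as on or off between groups where each library of 1 group was at or under 0.1 FPKM and each library of the other at or over 1 FPKM. The lowest of the 48 values was 15.2 FPKM, for H2-T10 in replicate 1 of the libraries labelled PELI2 knockout. None of the 8 genes met the rule, nor did any have 1 library at or under 0.1 FPKM beside another at or over 1 FPKM. In all, 3 of 27761 rows of the table met it, and these were Sva on chromosome 6, Gm23482 on chromosome 13 and n-R5s73 on chromosome 11, which are named after their values were seen. Of the 202 rows on chromosome 17 whose starts lie between H2-K2 and H2-M3, 0 met it. A copy missing from a haplotype could still be listed above 0 through reads shared with its neighbours. The values of H2-M3 and H2-T24 depend least on such reads. It is the number of Q and T genes that differs between strains, so the value of H2-M3 says little about haplotype. H2-Q4, H2-Q6, H2-Q7, H2-T10 and H2-T22 have only 46.5 to 73.5% of 50-base windows to themselves over all transcripts. For these genes the rule could miss an absent copy.

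**Figure D2:**
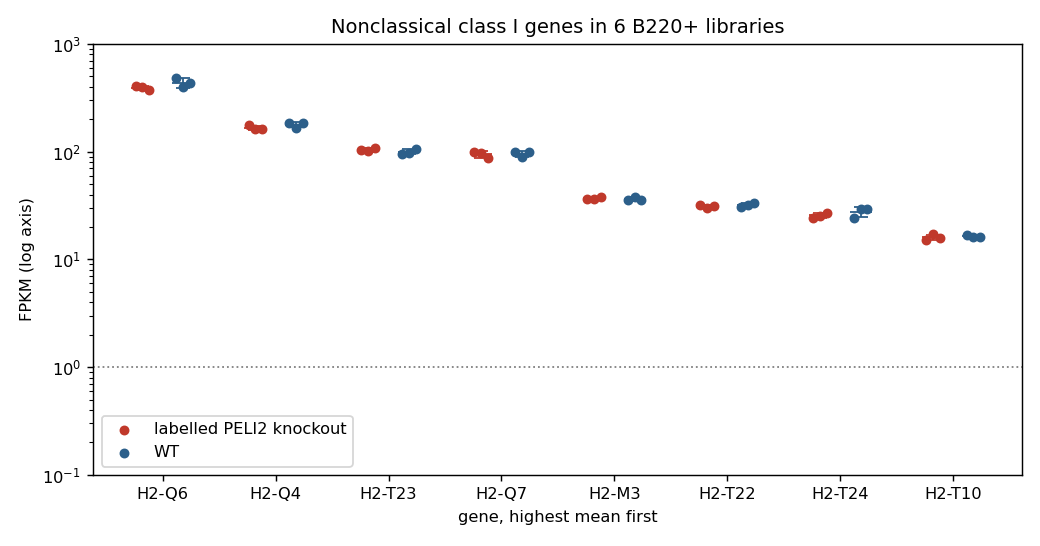
FPKM on a log axis (y) for each of the 8 genes (x, highest mean first), with points for the 3 libraries labelled PELI2 knockout in red on the left and the 3 WT libraries in blue on the right, and bars for mean and SD. The dotted line marks 1 FPKM, and each of the 48 points lies at 15.2 FPKM or above.

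The levels spanned 25.7-fold between H2-Q6 and H2-T10 on this per-length scale. H2-Q6 averaged 416 ± 38.4 FPKM (SD, n = 6 libraries of both groups), H2-Q4 173 ± 10.5, H2-T23 102 ± 4.68, H2-Q7 95.2 ± 5.84, H2-M3 36.7 ± 1.04, H2-T22 31.5 ± 1.31, H2-T24 26.6 ± 2.22 and H2-T10 16.2 ± 0.70 FPKM. Neighbours in this order did not overlap over the 6 libraries, except H2-T23 and H2-Q7, whose ranges of 95.8 to 108 FPKM and 86.7 to 99.8 FPKM overlapped. H2-Q6 stood at or above the 99.7th percentile of all rows in each library, while H2-T10 lay between the 85.9th and 87.4th percentiles. The classical chains were higher than each of the 8 genes. H2-K1 stood at 831 ± 28.5 FPKM in libraries labelled PELI2 knockout, against 856 ± 40.8 FPKM in WT, and H2-D1 at 818 ± 25.2 and 853 ± 42.5 FPKM in the same groups (SD, n = 3 each).

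The comparison of the groups asks whether the genes differ with the PELI2 knockout label, and none of the 8 passed the test. Differences between groups were taken as log2(FPKM + 1) and tested with limma across 12953 genes, of which 0.0232% had an adjusted p under 0.05. The 8 genes were all tested and 0 were called. At an unadjusted p under 0.05 the count was 0 of 8, against 18.1% of all genes tested. That 0 did not hold in every setting. The unadjusted p went under 0.05 for H2-T22 and H2-T24 after rescaling to a common total (limma adjusted p = 0.232 for both), for H2-Q4 after quantile normalization (limma adjusted p = 0.271) and for H2-T24 without WT replicate 1 (limma adjusted p = 0.296). Groups that do not overlap were found for 0 of 8 genes, against 25.8% of all genes tested. The log2 fold changes ran from -0.15 to 0.06, with 6 below 0 and 2 above, where 53.6% of all tested genes were below 0. Their median was -0.040, beside -0.014 over all tested genes. After rescaling to a common total these medians were -0.11 and -0.08, the second over 16175 genes that then passed the filter. The adjusted p ran from 0.424 to 0.903.

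In the Q region, H2-Q6 had the lowest log2 fold change of the 8. It stood at 405, 403 and 374 FPKM in libraries labelled PELI2 knockout, against 484, 397 and 433 FPKM in WT. WT replicate 1 was the highest library and WT replicate 2 lay within the range of the other group, so the groups overlapped. The difference was -0.15 (SE 0.09; 95% interval -0.36 to 0.07; limma adjusted p = 0.424), and -0.07 without WT replicate 1. H2-Q4, listed by RefSeq also as Qb-1, stood at 176, 161 and 163 FPKM in libraries labelled PELI2 knockout, against 185, 167 and 183 FPKM in WT. Its difference was -0.10 (95% interval -0.26 to 0.06; limma adjusted p = 0.47), with replicate 1 of the libraries labelled PELI2 knockout above WT replicate 2. H2-Q7 stood at 99.2, 97.6 and 86.7 FPKM in libraries labelled PELI2 knockout, against 99.8, 88.9 and 99.1 FPKM in WT. Each group had 1 lower library, with the others at 97.6 to 99.8 FPKM. The difference was -0.02 (95% interval -0.20 to 0.16; limma adjusted p = 0.903), and its sign turned with library weights and when replicate 3 labelled PELI2 knockout, WT replicate 1 or WT replicate 3 was left out.

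In the T region, H2-T23 was the only gene of the 8 besides H2-M3 with a higher mean in libraries labelled PELI2 knockout. It stood at 104, 100 and 108 FPKM there, against 95.8, 97.5 and 106 FPKM in WT. The groups overlapped through WT replicate 3, and the difference was 0.06 (SE 0.06; 95% interval -0.08 to 0.20; limma adjusted p = 0.614), which turned to -0.013 after rescaling to a common total and to -3e-04 after quantile normalization. H2-T22 stood at 31.7, 29.8 and 31.5 FPKM in libraries labelled PELI2 knockout, against 30.5, 32.1 and 33.5 FPKM in WT (difference -0.05, 95% interval -0.17 to 0.08; limma adjusted p = 0.67). WT replicate 1 lay between the libraries labelled PELI2 knockout, so these groups overlapped too. H2-T10, which GENCODE types as a polymorphic pseudogene, stood at 15.2, 17.1 and 15.7 FPKM in libraries labelled PELI2 knockout, against 16.7, 16.3 and 16.2 FPKM in WT. The lowest and the highest library of H2-T10 were both labelled PELI2 knockout, and the difference was -0.03 (95% interval -0.17 to 0.10; limma adjusted p = 0.777), which turned to 0.0008 without replicate 1 labelled PELI2 knockout. H2-T24 stood at 24.5, 25.5 and 26.9 FPKM in libraries labelled PELI2 knockout, against 24.4, 29.1 and 29.4 FPKM in WT. WT replicate 1 was the lowest library of H2-T24 and the other WT libraries were the highest, with a difference of -0.10 (95% interval -0.30 to 0.09; limma adjusted p = 0.533). Without WT replicate 1 it was -0.19, with a limma adjusted p = 0.296.

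In the M region, H2-M3 varied little between libraries. It stood at 36.4, 36.8 and 38.0 FPKM in libraries labelled PELI2 knockout, against 35.6, 38.0 and 35.7 FPKM in WT, and the range of libraries labelled PELI2 knockout lay within that of WT. The difference was 0.02 (SE 0.05; 95% interval -0.09 to 0.13; limma adjusted p = 0.83), and it turned to -0.05 after rescaling to a common total. Its coefficient of variation was 2.3% in libraries labelled PELI2 knockout and 3.6% in WT, beside a counting error of 4.03% per kilobase at 615 reads per kilobase in the shallowest value. H2-Q6, at 4.4% in libraries labelled PELI2 knockout and 10% in WT, varied more between libraries than its counting error of 1.23%. Across the 8 genes the 95% intervals reach from 0.78-fold, for H2-Q6, to 1.15-fold, for H2-T23, on the FPKM + 1 scale. They cover the spread between these libraries and not how shared reads were divided.

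**Figure D3:**
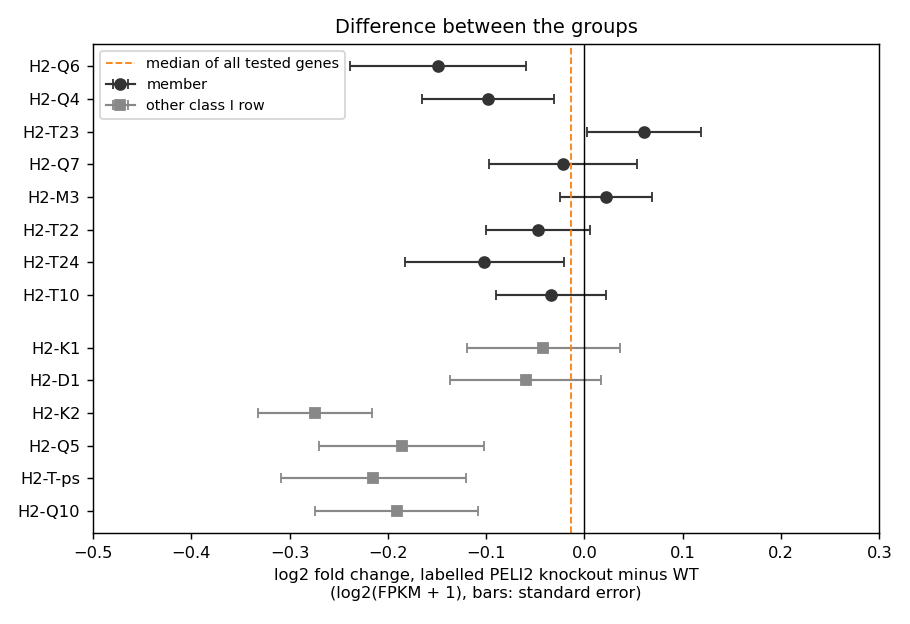
Log2 fold change on the log2(FPKM + 1) scale (x axis, labelled PELI2 knockout minus WT) with its standard error for the 8 genes (black circles) and the 6 other tested class I rows of the H2 complex (grey squares), beside the median of all tested genes (dashed line). The 8 genes lie between -0.15 and 0.06, and H2-K2 is lowest at -0.27.

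Within the pairs of near copies, the share of the summed FPKM held by 1 copy would move if a haplotype lacked the other. H2-Q6 made up 80.3, 80.5 and 81.2% of the sum of H2-Q6 and H2-Q7 in libraries labelled PELI2 knockout, against 82.9, 81.7 and 81.4% in WT. The groups did not overlap, the difference was -1.34 percentage points, and the two-sided exact permutation test gave p = 0.1, the smallest that 3 against 3 libraries allow. Without WT replicate 1 the difference was -0.88 points. H2-T10 made up 32.4, 36.5 and 33.3% of the sum of H2-T10 and H2-T22 in libraries labelled PELI2 knockout, against 35.4, 33.6 and 32.5% in WT (two-sided exact permutation test, p = 1). Neither share came near 0 or 100% in any library. The pairs also share 50-base windows with genes outside them. Over all transcripts, H2-Q7 shares 14.0% with H2-Q10, H2-T10 24.9% with BC023719 and H2-T22 26.5% with A930015D03Rik. These shares and the sums below therefore still depend on how such reads were divided. The sum of H2-Q6 and H2-Q7, which depends less on how reads were divided between them, was 504, 500 and 460 FPKM in libraries labelled PELI2 knockout, against 584, 486 and 532 FPKM in WT (two-sided exact permutation test, p = 0.3). The sum of H2-T10 and H2-T22 was 46.9, 46.9 and 47.15 FPKM in libraries labelled PELI2 knockout, against 47.19, 48.4 and 49.7 FPKM in WT. Those groups were apart by a narrow margin, with a difference of -0.04 on the log2 scale and p = 0.1 (two-sided exact permutation test), where 25.8% of all tested genes also had groups apart. The 8 genes together made up 34.7, 35.4 and 33.4% of class I FPKM, counted as the 8 genes with H2-K1 and H2-D1, in libraries labelled PELI2 knockout, against 36.0, 34.8 and 34.4% in WT (two-sided exact permutation test, p = 0.5).

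**Figure D4:**
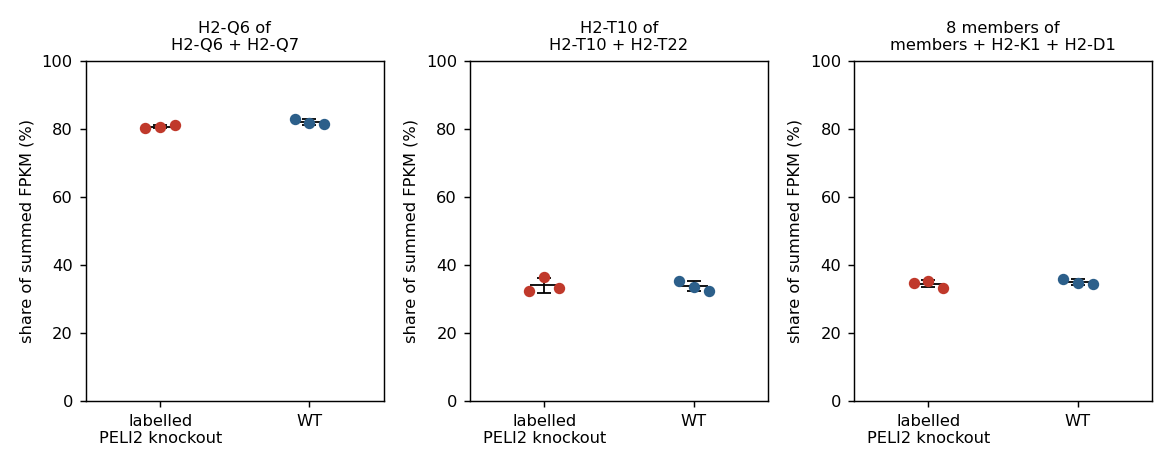
Share of summed FPKM in percent (y axis) per library, with the 3 libraries labelled PELI2 knockout on the left and the 3 WT libraries on the right of each panel, and bars for mean and SD. H2-Q6 held 80.3 to 82.9% of H2-Q6 with H2-Q7, H2-T10 held 32.4 to 36.5% of H2-T10 with H2-T22, and the 8 genes held 33.4 to 36.0% of class I.

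The sequence before the transcript start is shown for members with a promoter in the RefSeq table, because the classical elements of class I promoters are visible in it. Class I promoters are known for an NF-kB site called enhancer A, an interferon response element and a module bound by the coactivator NLRC5 together with CREB and NF-Y factors. The table (GRCm38.p6) held H2-Q4, H2-Q6, H2-Q7, H2-T22, H2-T23 and H2-M3 of the 8 genes. In the 250 bases upstream of each start, both strands were searched for 4 short runs, which were chosen with these promoters in view. GGGGATT, a run of enhancer A, was in 2.76% of 32851 promoters. TTTCACTT, a run of the interferon response element, was in 1.36% of them. TGATGAC, a CRE-like run, was in 2.69%. CCAAT, the box bound by NF-Y, was in 33.85%. H2-Q4, H2-Q6, H2-Q7 and H2-T22 each held all 4, as did 2 other promoters of the table, those of H2-D1 and Gm6034. The layout of H2-T22 differed from that of the Q genes. Its GGGGATT match was on the reverse strand, 180 to 174 bases before the start, and came after the interferon run at 191 to 184. In the Q genes GGGGATT read as written and came before that run. The stretches that hold the matches are shown 5′ to 3′ on the gene's own strand with the matches in capitals, at chr17:35379433-35379576 (plus strand) for H2-Q4, chr17:35424667-35424809 (plus strand) for H2-Q6, chr17:35439012-35439153 (plus strand) for H2-Q7, chr17:36042791-36042953 (minus strand) for H2-T22 and chr17:37270095-37270227 (plus strand) for H2-M3.
H2-Q4: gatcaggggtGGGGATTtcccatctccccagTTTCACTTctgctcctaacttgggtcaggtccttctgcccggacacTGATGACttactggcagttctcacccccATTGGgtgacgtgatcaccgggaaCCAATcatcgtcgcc
H2-Q6: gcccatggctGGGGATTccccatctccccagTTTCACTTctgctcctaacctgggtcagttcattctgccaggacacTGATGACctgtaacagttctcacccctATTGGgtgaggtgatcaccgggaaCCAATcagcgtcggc
H2-Q7: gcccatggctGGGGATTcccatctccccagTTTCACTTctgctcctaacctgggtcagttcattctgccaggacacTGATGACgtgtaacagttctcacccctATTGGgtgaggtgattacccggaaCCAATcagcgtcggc
H2-T22: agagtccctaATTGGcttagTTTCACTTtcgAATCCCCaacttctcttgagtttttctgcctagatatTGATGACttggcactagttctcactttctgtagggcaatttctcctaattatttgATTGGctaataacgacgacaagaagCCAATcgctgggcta
H2-M3: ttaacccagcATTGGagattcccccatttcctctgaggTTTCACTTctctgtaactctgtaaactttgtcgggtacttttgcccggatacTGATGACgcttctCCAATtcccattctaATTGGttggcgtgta
H2-M3 held the interferon and CRE-like runs and CCAAT but not GGGGATT, and H2-T23 held CCAAT alone. That H2-T23 match lies 52 to 48 bases before the RefSeq start, within the stretch chr17:36032739-36032763 (minus strand). In GENCODE the gene reaches to 36032855, so this stretch and most of the 250-base window lie inside the gene. Whether H2-T23 holds the other runs further upstream was not tested. The matches describe letters in these windows and not binding.

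**Figure D5:**
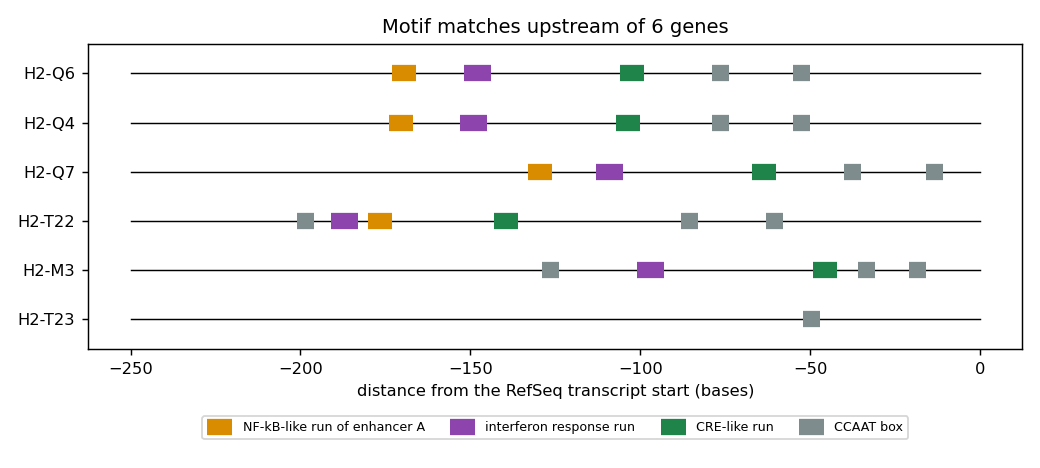
Matches to 4 short runs on either strand (coloured blocks) within 250 bases upstream of the RefSeq transcript start (x axis, distance in bases) for the 6 genes with a promoter in the table (rows). H2-Q6, H2-Q4, H2-Q7 and H2-T22 hold all 4 runs, and H2-M3 holds 3. H2-T23, whose window lies partly inside its GENCODE gene, holds CCAAT alone.

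Other class I rows of the H2 complex, 15 in all, showed no on or off pattern either. H2-K1, H2-D1, H2-K2, H2-Q5, H2-T-ps and H2-Q10 were expressed and tested, and each had a mean below that of WT in libraries labelled PELI2 knockout. Of all tested genes 53.6% had a log2 fold change below 0. H2-K2, typed by GENCODE as a transcribed pseudogene, stood at 80.9, 78.4 and 72.6 FPKM in libraries labelled PELI2 knockout, against 97.0, 91.0 and 93.0 FPKM in WT. It was the only one of the 6 with groups apart, where 25.8% of all tested genes were, at a log2 fold change of -0.27 (SE 0.06; limma adjusted p = 0.142). H2-Q5, which lies between H2-Q4 and H2-Q6, stood at 96.8, 94.9 and 91.3 FPKM in libraries labelled PELI2 knockout, against 120, 96.4 and 107 FPKM in WT (limma adjusted p = 0.303). The other 9 rows, H2-Q1, H2-Q2, H2-Q3, H2-Bl, H2-M9, H2-M10.2, H2-M10.4, H2-M11 and H2-M6-ps, stayed at or under 0.387 FPKM in each library.

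Genes that load class I molecules or control them were read from a list of 22, and 0 passed over all genes (limma). With no adjustment, p was under 0.05 for 2 higher and 2 lower genes in libraries labelled PELI2 knockout, close to the 18.1% of all tested genes, and the median log2 fold change was 0.00. B2m, the light chain of class I molecules, was chosen after its values were seen and stood at 1332, 1296 and 1491 FPKM in libraries labelled PELI2 knockout, against 1279, 1354 and 1463 FPKM in WT. The groups overlapped, with a limma adjusted p = 0.973. Calr and Pdia3, chaperones of the peptide-loading complex in the endoplasmic reticulum, stood at 202 ± 4.50 and 96.1 ± 2.88 FPKM in libraries labelled PELI2 knockout, against 172 ± 7.13 and 80.8 ± 7.81 FPKM in WT (SD, n = 3 each; limma adjusted p = 0.153 and 0.204). Nlrc5, the coactivator of class I promoters, stood at 20.4, 18.6 and 17.97 FPKM in libraries labelled PELI2 knockout, against 21.5, 20.01 and 22.5 FPKM in WT (limma adjusted p = 0.271). Irf1, a transcription factor of interferon responses, stood at 48.4, 46.5 and 43.8 FPKM in libraries labelled PELI2 knockout, against 54.2, 48.0 and 52.9 FPKM in WT (limma adjusted p = 0.274). Of 20 interferon-stimulated genes, 15 had a lower mean in libraries labelled PELI2 knockout, with 0 called, 7 of the lower and 0 of the higher ones at p under 0.05 before adjustment, and a median of -0.18. Over all 12953 genes, 1150 were lower at that limit, and 53.6% had a log2 fold change below 0.

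Receptors that read class I molecules are mostly genes of NK, T and myeloid cells, and 15 of 17 listed had a row. Of 12 tested, 0 were called over all genes (limma), 2 higher and 0 lower genes had p under 0.05 before adjustment, close to the 18.1% of all tested genes. The median log2 fold change was 0.16, and 0.07 without replicate 3 labelled PELI2 knockout. Pirb, an inhibitory class I receptor of B cells and myeloid cells, stood at 21.8, 22.4 and 22.6 FPKM in libraries labelled PELI2 knockout, against 14.4, 17.1 and 17.9 FPKM in WT. The groups were apart, as they were for 25.8% of all tested genes, at a log2 fold change of 0.42 (SE 0.08; limma adjusted p = 0.142). Each of the 15 granulocyte genes had a higher mean in the same libraries, and a link between the 2 was not tested. Cd160 was the other receptor gene with p under 0.05 before adjustment, and its groups were apart too. Its mean was 1.85 FPKM under the PELI2 knockout label and 1.36 FPKM under WT (limma, adjusted p of 0.235). Klrd1, the CD94 chain of the receptor for Qa-1, stood at 15.5, 12.2 and 16.8 FPKM in libraries labelled PELI2 knockout, against 11.0, 12.9 and 12.7 FPKM in WT (limma adjusted p = 0.315). The groups of Klrd1 overlapped. So did those of Klrc1, a further listed receptor gene, whose means were 3.20 FPKM under the PELI2 knockout label and 3.12 FPKM under WT. Of 10 tested T and NK cell markers 7 had a higher mean and 3 a lower one in libraries labelled PELI2 knockout, with a median of 0.05.

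Class I-like genes encoded outside the H2 complex had 0 of 7 tested members called over all genes (limma), with p under 0.05 before adjustment for 1 lower and 0 higher genes, no more than the 18.1% of all tested genes. Cd1d1, which shows lipids to NKT cells, stood at 20.1, 18.1 and 15.5 FPKM in libraries labelled PELI2 knockout, against 26.9, 23.3 and 20.7 FPKM in WT. The groups were apart, as they were for 25.8% of all tested genes, with a log2 fold change of -0.38 (SE 0.12; limma adjusted p = 0.208). In the same libraries 11 of 12 B cell genes also had a lower mean, and a link to Cd1d1 was not tested. Hfe, a regulator of iron uptake, stood at 1.44, 1.84 and 1.999 FPKM in libraries labelled PELI2 knockout, against 0.743, 1.16 and 1.54 FPKM in WT (limma adjusted p = 0.292).

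The genes whose log2 values followed each member most closely over the 6 libraries differed from member to member. They were Slc39a9 and Coro7 for H2-Q4 (Pearson r = 0.9958 and 0.9954), Dvl3 and Nup210 for H2-Q6 (0.997 and 0.9952), and Zfp783 and Cnep1r1 for H2-T23 (0.996 and 0.993). For H2-Q7 they were Rad54b and E4f1 (0.9937 and 0.9819), for H2-T10 Klhl9 and Mrps30 (0.9853 and 0.9755), for H2-T22 Fastkd3 and Pygm (0.9824 and 0.9805), for H2-T24 Cd84 and Smyd4 (0.9931 and 0.9817), and for H2-M3 Cib2 and Hps3 (0.9863 and 0.9808). With 6 points and 12953 genes to choose from, values this high describe the closest match and no more. Among the 8 genes themselves, r was 0.841 between H2-Q4 and H2-Q6, 0.715 between H2-Q6 and H2-Q7, and -0.499 between H2-T10 and H2-T22, for copies that can share reads. The values of H2-M3, with 99.4% of its 50-base windows to itself, were as large or larger in size with the Q genes. They were -0.942 with H2-Q7, -0.834 with H2-Q4 and -0.833 with H2-Q6. The cause of these correlations was not tested. The 6 libraries also differ in group and depth.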

How the data were processed

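For 3 PELI2 knockout and 3 WT samples of B220+ marrow cells, messenger RNA was sequenced as single-end reads of 50 bases without a stated strand, per the labels' protocols. The authors deposited FPKM per gene, with no scaling across libraries stated. RSEM 1.2.12, DESeq2 1.4.5, Bowtie2 2.2.5 and HISAT2 2.0.4 are listed, without roles, in the submitters' processing notes, with GRCm38.p6 as build. Depth was found as the total that makes FPKM times length whole, within 0.03 reads, for genes with 1 transcript (99.2 to 99.4% of low values). Intervals and counting errors cover sampling only.

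The 12953 genes that reached 1 FPKM in 3 or more libraries entered a limma model of log2(FPKM + 1), limma 3.58.1 (R 4.3.3, trend, two-sided, Benjamini-Hochberg, adjusted p under 0.05), which was tested on simulated data. Single values used exact permutation tests (scipy 1.17.1). Of the table's IDs, 27696 are in GENCODE M21, and 95.6% of these have identical coordinates there. Coding sequences were aligned with Biopython 1.88, and promoters came from RefSeq (GRCm38.p6). H2-Ke6, which is no class I chain, was left out of the class I rows. Named genes are the 8 members, up to 4 per list by p, and the 2 closest by r per member, without predicted genes or segments of antigen receptors. Members and lists were chosen with earlier results of these data known. Listed genes without a row were Trgc1, Trgc2 and Azgp1. Alternatives were pseudocounts, filters, scalings, library weights, eBayes without a trend, a replicate block, other limits for on and off, shorter windows, and each library left out.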

Additional observations from a re-analysis of the deposited data

How the results depend on the processing

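The count of 0 members called held under all 16 alternatives of the fit, as did 0 for the loading, receptor and class I-like lists, and the on or off count stayed 0 with limits of 0.5 and 2 or of 0 and 0.5 FPKM. Of 128 alternative fold changes of the 8 genes, 120 kept their sign and none passed an adjusted p under 0.05 (limma, 0.232 to 0.999). Rescaling to a common total moved the median of all genes to -0.08 and that of the 8 genes to -0.1146, lowered H2-T22 to -0.1213 and H2-T10 to -0.108, moved the sums of H2-Q6 with H2-Q7 to -0.1998 and of H2-T10 with H2-T22 to -0.117, and turned H2-T23 to -0.013 and H2-M3 to -0.0509. In that rescaled fit 16175 genes passed the filter, in place of 12953, so its median over all genes covers a larger set. Quantile normalization turned H2-T23 to -3e-04, and library weights turned H2-Q7 to 0.0092. With each library left out, H2-Q7 ran from -0.0751 to 0.0388 and H2-T10 from -0.081 to 0.0008, the H2-T10 share difference from -1.02 to 1.02 percentage points, the H2-Q6 share difference from -1.65 to -0.88, and that of the 8 genes within class I from -1.05 to -0.02. Over all alternatives the median of the loading list ran from -0.07 to 0.03, of the receptor list from 0.06 to 0.24 and of the class I-like list from -0.09 to -0.02. Over all genes 3 were called, with 2 at a pseudocount of 0.1 or no filter, 1 at a filter of 5 FPKM, 6 when rescaled to a common total or without a trend, 4 with the replicate block, and 1 to 13 with each library left out. With 25-base windows the median share of windows in no other gene was 46.7%, against 69.3% with 50 bases over all transcripts. Shorter windows match more genes by construction. For the other changes the cause was not tested. Libraries of the same replicate number correlated at 0.101, 0.036 and 0.09 in deviations from group means, against -0.107 to 0 for different numbers. Each library correlated best with its own number, and whether equal numbers mark pairs was not tested. The replicate block changed no call among the 8 genes, where the adjusted p of H2-Q6 was 0.376. Depth limits H2-T10 most, at 270 reads per kilobase in its shallowest value.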
